A study of Mus musculus with 34 samples.

Results

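Haematopoietic stem cells (HSC) of adult mouse bone marrow were compared with 3 other somatic cell populations measured on the same type of expression array. The comparison covers every probe set to which the array's annotation gives a single gene symbol, control probe sets left out. These are 10833 of the 12488 probe sets on the array, and they read 8251 genes. No measured value chose them. In all, 2 HSC arrays stood against 12 arrays of the other somatic cells.

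All mice were C57Bl/6. The HSC came from the bone marrow of males aged 8 weeks and were sorted as c-Kit+, Sca-1+, Lin- and CD34- cells that also lay in the side population, the small fraction that expels the dye Hoechst. The second group, SGM, held 4 samples of somatic cells from the gonad and mesonephros of embryos of both sexes at E11.5, sorted as the cells without the Oct4/GFP germ cell reporter. The third, MEF, held 6 samples of embryonic fibroblasts of E13.5, of mixed sex, grown in serum to passage 2. The fourth, NSC, held 2 samples of neural stem cells from the sub-ventricular zone of mice aged 8 weeks, of mixed sex, grown as neurospheres with EGF to passage 1. HSC thus differed from each other group in tissue and sex, from SGM and MEF in age, and from MEF and NSC in not having been cultured, and these differences cannot be told apart from cell type. The series also holds primordial germ cells, embryonic stem cells, inner cell mass and embryonic germ cells. Their 18 arrays serve here to estimate the spread between replicates and, in places, as further arrays against which the HSC arrays are ranked.

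HSC renew themselves and give rise to red cells, platelets and all myeloid and lymphoid leukocytes. In adult marrow most of them rest outside the cell cycle, held in place by contacts with stromal cells such as those between the receptor Kit and its ligand Kitl and between the receptor Cxcr4 and the chemokine Cxcl12. Transcription factors including Tal1, Lmo2, Lyl1, Gata2, Runx1, Gfi1 and Spi1 are known for establishing or keeping blood cell identity.

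Values are deposited log2 signals, so a difference of 1 is a 2-fold change. Each gene is given by its brightest probe set, and where another probe set of a named gene was not called, or was called the other way, this is said. For defining cell type markers named only as such, for example Mpo, Cdh5 and Wt1, other probe sets are not given. A difference is HSC minus the mean of the SGM, MEF and NSC group means, each group weighted equally, and is printed with its standard error (SE). A gene is called where limma's two-sided test, adjusted by the Benjamini-Hochberg method over all 10833 probe sets, gave a p under 0.05. Signals of different probe sets are not compared with each other. In bulk samples such as these, a lower signal from fewer expressing cells and one from less RNA per cell cannot be told apart.

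The 2 HSC arrays correlated at 0.98 over the probe sets, against 0.983 to 0.996 within SGM and MEF and 0.991 for NSC. The HSC arrays had a narrower distribution, with an SD of 1.9 to 1.93 against 2.01 to 2.18 on the other 12, and a higher lower quartile, 6.01 to 6.07 against 5.84 to 5.96. Among the 66 control probe sets, HSC values correlated with NSC at 0.974 but with SGM at 0.354 and with MEF at 0.297, although SGM and MEF correlated with each other at 0.98. Over the other probe sets HSC correlated with these groups at 0.881, 0.857 and 0.8. The control values were therefore not used, and their bearing on the gene values was not tested. Whether HSC and NSC were processed together and apart from SGM and MEF is not given in the sources used here, and in the comparisons with SGM and MEF this cannot be told apart from cell type. The MEF arrays hold 13 probe sets above 16, the log2 of the highest reading of a 16-bit scanner, which no other somatic array passes, so the scale of MEF values at that end is not settled.

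HSC differed from the other somatic cells in most of the genes measured. Over the mean of the 3 groups, 3026 of 8251 genes were higher in HSC (36.7%) and 2273 were lower (27.5%), of which 770 (9.33%) and 992 (12%) differed by at least 2-fold. The median over all genes was 0.085. Calls of higher expression were more frequent among dim genes. Of the genes with the lowest mean signal, 42.3% were higher and 16.1% lower, with a median difference of 0.18, and of those with the highest, 26% were higher and 44.5% lower, with a median of -0.20, when the genes were split into 3 equal classes. A positive difference of this size in a dim gene is therefore near the middle of all dim genes.

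The single comparisons shared the HSC arrays and gave 2924 genes higher (35.4%) and 2356 lower (28.6%) against SGM, 3500 (42.4%) and 2399 (29.1%) against MEF, and 2386 (28.9%) and 2015 (24.4%) against NSC. In 1211 genes (14.7%) HSC were above each of the 3 groups and in 766 (9.28%) below each, by a test that takes the largest of the 3 one-sided p-values. Both HSC arrays lay above all 12 other somatic arrays in 1736 genes (21%) and below all 12 in 1078 (13.1%). When the 18 arrays of germ line and pluripotent cells were added, both HSC arrays lay above all 30 others in 1056 genes (12.8%) and below all 30 in 581 (7.04%).

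Ctla2b, Ltb, S100a9, Myb and Ptpn6 rose most in HSC. Ctla2b, a relative of cysteine protease propeptides found in activated T cells, read 12.23 and 12.49 on the HSC arrays, 4.82, 5.07, 5.10 and 5.13 in SGM, 6.17 to 6.73 with a median of 6.50 in MEF, and 5.02 and 5.11 in NSC. The groups were far apart, and the difference was 6.84 ± 0.15 (SE), or 115-fold (adjusted p = 1.7e-23). Ltb, which encodes the cytokine lymphotoxin beta, read 11.96 and 12.03 in HSC and 6.35 to 6.72, 6.20 to 6.84, and 6.49 and 6.57 in SGM, MEF and NSC, a difference of 5.48 ± 0.13 (44.8-fold, adjusted p = 9e-23). Ptpn6, the phosphatase SHP-1 that damps cytokine receptor signals in blood cells, read 9.09 and 9.04 in HSC against 3.51 to 3.82, 2.77 to 3.40, and 4.68 and 5.02, a difference of 5.19 ± 0.18. Here too no array of another somatic group came near the HSC arrays.

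Myb and Lmo2 were the transcription regulators with the largest rises. Myb, needed for definitive blood formation, read 10.75 and 9.11 in HSC, 4.21, 4.72, 4.78 and 5.07 in SGM, 3.86 to 4.13 with a median of 3.95 in MEF, and 5.37 and 5.59 in NSC, a difference of 5.21 ± 0.30 (37.1-fold, adjusted p = 1.3e-14). The HSC arrays themselves differed widely for Myb, and its other probe set gave -0.20 and was not called (adjusted p = 0.25). Lmo2, a bridging protein in complexes with Tal1 and Gata2, read 13.00 and 13.03 in HSC, 8.75, 8.90, 8.93 and 8.95 in SGM, 8.14 to 8.39 with a median of 8.26 in MEF, and 7.21 and 7.29 in NSC, a difference of 4.88 ± 0.09 (29.5-fold, adjusted p = 8.9e-25), and its other probe set also rose, by 2.99. Kit, the stem cell factor receptor and a gate gene, read 9.59 and 9.79 in HSC, 4.78, 4.95, 5.22 and 5.86 in SGM, 4.15 to 4.84 with a median of 4.51 in MEF, and 6.08 and 6.27 in NSC, a difference of 4.40 ± 0.24 (21.2-fold). The HSC were sorted as c-Kit+ cells, so the Kit values are no independent check of the label.

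Of the other genes among the 12 largest rises, S100a8 and S100a9, calcium-binding proteins abundant in neutrophils, differed by 5.07 ± 0.27 and 5.28 ± 0.20. Srgn, the proteoglycan core of leukocyte granules, differed by 4.79 ± 0.22, Napsa, an aspartic protease, by 4.75 ± 0.11, Cytip, an adaptor that regulates leukocyte adhesion, by 4.73 ± 0.10, and Tnfrsf1b, a tumour necrosis factor receptor, by 4.71 ± 0.11. In each of the 12 genes both HSC arrays lay above all 30 other arrays of the study, germ line and pluripotent cells included.

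**Figure D1:**
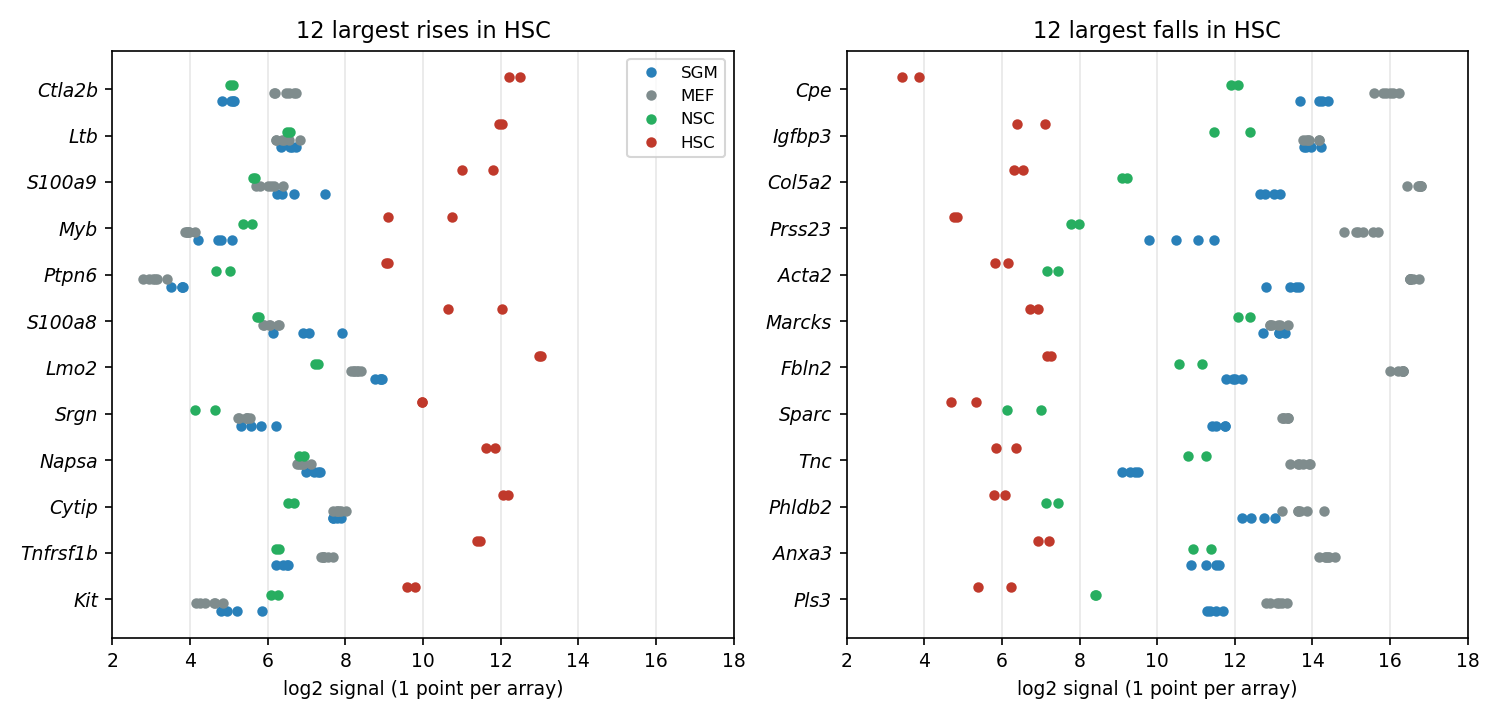
Log2 signal (x axis) of the 12 genes with the largest rises (left) and the 12 with the largest falls (right) in HSC against the mean of SGM, MEF and NSC, 1 point per array. In each gene the 2 HSC points (red) lie beyond all 12 points of the other groups, and in Cpe they lie at 3.43 and 3.87 where the other arrays lie above 11.

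Promoters of some blood genes that rose are shown, since many blood genes are known targets of ETS family factors such as Spi1 (PU.1). The windows are examples picked without a fixed rule, and those of Ctla2b, Ltb, Myb and Lmo2 are not shown. They do not tell how common the letters are, and whether an ETS factor had a part in any rise was not tested. Each line gives the 300 bases around the RefSeq start on GRCm38.p6, most of them before it, 5′ to 3′ on the gene's strand. Capitals mark the letters GGAAGT, or ACTTCC for the other strand, an ETS core. The Ptpn6 promoter lies at chr6:124738660-124738959 on the minus strand, that of Laptm5 at chr4:130913066-130913365 on the plus strand, that of S100a8 at chr3:90668821-90669120 on the plus strand and that of S100a9 at chr3:90695672-90695971 on the minus strand.
Ptpn6: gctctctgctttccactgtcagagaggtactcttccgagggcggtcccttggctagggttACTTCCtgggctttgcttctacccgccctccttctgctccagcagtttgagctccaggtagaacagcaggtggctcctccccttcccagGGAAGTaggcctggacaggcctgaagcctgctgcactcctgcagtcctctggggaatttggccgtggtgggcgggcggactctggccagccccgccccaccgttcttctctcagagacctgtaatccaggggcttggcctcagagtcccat
Laptm5: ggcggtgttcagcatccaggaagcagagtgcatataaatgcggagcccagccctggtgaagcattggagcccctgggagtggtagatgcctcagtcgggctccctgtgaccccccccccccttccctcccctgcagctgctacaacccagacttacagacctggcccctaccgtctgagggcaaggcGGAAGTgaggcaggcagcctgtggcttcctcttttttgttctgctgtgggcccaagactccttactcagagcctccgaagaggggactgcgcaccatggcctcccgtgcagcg
S100a8: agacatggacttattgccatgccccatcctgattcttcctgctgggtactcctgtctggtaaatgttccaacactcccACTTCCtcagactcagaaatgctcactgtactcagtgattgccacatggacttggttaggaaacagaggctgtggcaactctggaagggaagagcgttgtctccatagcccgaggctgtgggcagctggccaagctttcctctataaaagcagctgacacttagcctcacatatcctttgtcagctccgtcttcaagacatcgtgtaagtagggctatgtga
S100a9: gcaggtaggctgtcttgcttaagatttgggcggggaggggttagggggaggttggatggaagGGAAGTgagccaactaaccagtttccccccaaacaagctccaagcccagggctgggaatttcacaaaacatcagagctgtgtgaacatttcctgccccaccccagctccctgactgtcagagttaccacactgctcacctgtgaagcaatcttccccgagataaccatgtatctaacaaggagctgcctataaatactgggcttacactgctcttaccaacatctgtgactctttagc
The Ptpn6 window holds 2 matches and the other windows 1 each, and the match of S100a8 is part of the longer PU.1 type GAGGAAGT (ACTTCCTC on the other strand). The 6 letters occur on either strand in 23.8% of all 32851 promoters of this length in the table and in 26.7% of the promoters of genes measured here. For the 360 genes (4.36%) higher in HSC than in each group by at least 2-fold, 299 had a promoter in the table, and 32.5% of their 382 promoters held the letters. For the 405 genes (4.91%) lower than each by at least 2-fold, 327 had one, and the share was 19.4% of 418 promoters. The PU.1 type was in 5.5% of the first set and 2.15% of the second, against 2.72% for all genes measured. The GATA letters AGATAA (7.07% and 5.74%, against 7.26%) and the RUNX letters TGTGGT (59 of 382 and 48 of 418, against 1105 of 8412) were searched in the same way on both strands. These are counts of letters, and no binding was measured.

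Cpe, Igfbp3, Col5a2, Prss23 and Acta2 fell most in HSC. Cpe, carboxypeptidase E, which trims peptide hormones, read 3.43 and 3.87 in HSC, 13.67, 14.16, 14.26 and 14.39 in SGM, 15.59 to 16.22 with a median of 15.96 in MEF, and 11.91 and 12.09 in NSC. The difference was -10.37 ± 0.29, or 1324-fold (adjusted p = 2.7e-21), and the other probe set of Cpe gave -8.22. Cpe is among the genes whose MEF arrays pass 16, but against NSC, which do not, it still differed by -8.35 ± 0.38. Igfbp3, which binds insulin-like growth factors, read 6.38 and 7.11 in HSC and 13.78 to 14.21, 13.75 to 14.17, and 11.47 and 12.38 elsewhere, a difference of -6.53 ± 0.18, with a smaller one of -0.82 at its other probe set. Marcks, a membrane-bound substrate of protein kinase C, read 6.93 and 6.73 in HSC and 12.72 to 13.29, 12.89 to 13.38, and 12.07 and 12.40 in the other groups, a difference of -5.96 ± 0.20. For Marcks the 3 groups were alike and HSC alone lay low. The matrix and muscle genes Col5a2 (-6.49), Acta2 (-6.42), Fbln2 (-5.82), Sparc (-5.48) and Tnc (-5.26) followed, with the serine protease Prss23 (-6.47), Phldb2 (-5.26), Anxa3 (-5.20) and Pls3 (-5.17). Every MEF array also passes 16 for Col5a2, Acta2 and Fbln2. Against NSC these genes differed by less, at -2.73 ± 0.22, -1.31 ± 0.29 and -3.65 ± 0.17. In each of the 12 largest falls both HSC arrays lay below all 30 other arrays.

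Transcription regulators of HSC were higher in HSC in most cases. Of 36 measured, 27 rose (75%, against 36.7% of all genes) and 2 fell (5.56%, against 27.5%). The median difference was 0.69 against 0.085 over all genes. In 17 both HSC arrays lay above all 12 other somatic arrays, and in 16 above all 30. Over all genes these shares were 21% and 12.8%. Gfi1, a repressor that restrains HSC proliferation, read 7.79 and 7.83 in HSC and 4.62 to 4.96, 4.57 to 4.97, and 4.47 and 4.53 in SGM, MEF and NSC, a difference of 3.11 ± 0.09 (adjusted p = 7.6e-21). Tal1, the master regulator of blood specification, read 8.55 and 8.98 against 6.10 to 6.83, 5.40 to 5.75, and 5.53 and 5.83, a difference of 2.88 ± 0.13. Neither gene's HSC arrays overlapped those of another group. Nfe2, a factor of erythroid and megakaryocyte genes, differed by 3.84 ± 0.19, and the nuclear receptor Nr4a1 by 2.86 ± 0.13.

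Gata2, Spi1 and Runx1 rose by smaller amounts. Gata2, needed for HSC survival, read 10.45 and 10.79 in HSC, 8.90, 9.11, 9.13 and 9.26 in SGM, 7.58 to 7.77 with a median of 7.65 in MEF, and 7.76 and 7.78 in NSC, a difference of 2.44 ± 0.13, with 0.64 at its other probe set. Spi1 read 8.18 and 8.51 against 7.09 to 7.36, 6.85 to 7.13, and 7.06 and 7.07, a difference of 1.25 ± 0.10. Runx1, required for the emergence of HSC, read 6.21 and 6.12 against 5.11 to 5.33, 5.24 to 5.79, and 4.73 and 4.93, a difference of 0.95 ± 0.13. All 3 were higher in HSC than in each of the other groups.

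Several genes known for their part in HSC did not stand out. Meis1, a partner of Hox proteins, read 6.66 and 6.92 in HSC and 6.72, 6.97, 7.23 and 7.68 in SGM, and its difference of 0.43 ± 0.16 came from MEF (1.49 ± 0.17), while it was not called against SGM (-0.36 ± 0.18) or NSC (0.15 ± 0.20). Without the second array of HSC or of NSC it was no longer called over the mean (0.30 and 0.37). Mecom, the locus of Evi1, read 6.43 and 6.52 in HSC and was not called over the mean (0.14 ± 0.11, adjusted p = 0.28), and its other 2 probe sets gave -0.03 and -0.41. The fall on this list was largest in Ndn, a growth suppressor and imprinted gene, at -2.31 ± 0.13, and Mycn fell by the mean (-0.45) through SGM (-2.49 ± 0.19), with 0.34 at its other probe set. Without the first array of HSC or of NSC Mycn was no longer called (-0.29 and -0.37). Hlf and Ly6a, the gene of Sca-1, were not analysed here.

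**Figure D2:**
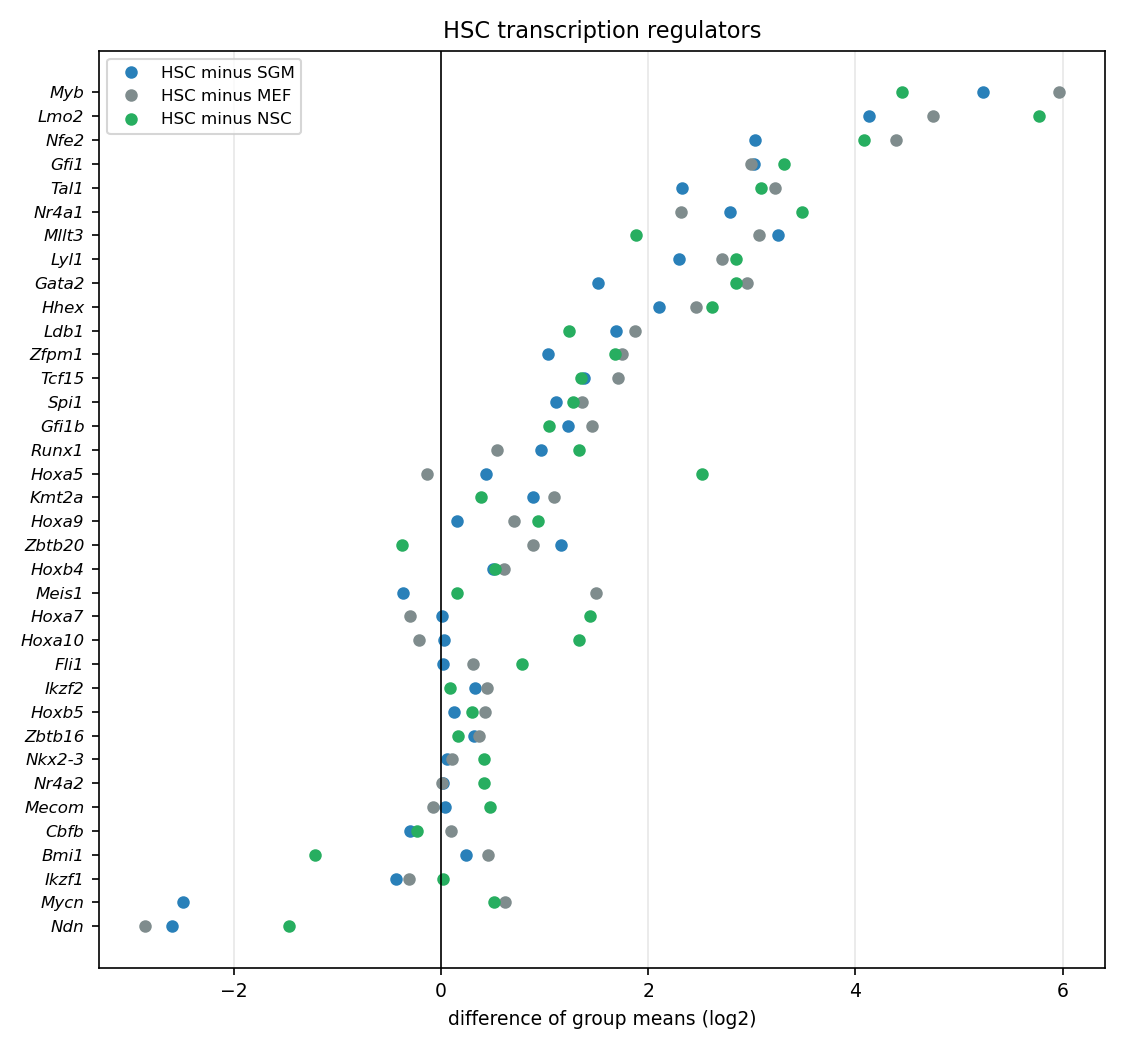
Difference of group means (log2, x axis) of HSC from SGM (blue), MEF (grey) and NSC (green) for the 36 measured HSC transcription regulators (y axis). All 3 points lie above 1 for the genes from Myb down to Gfi1b, while Ndn lies below -1 in all 3.

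Genes of the sorting gate and the HSC surface gave a mixed picture. Of 21 measured, 14 rose (66.7%, against 36.7% of all genes) and 5 fell (23.8%, against 27.5%), with a median of 0.50. Eng, a co-receptor of the TGF-beta family on HSC and endothelium, differed by 4.14 ± 0.18, and Procr, the endothelial protein C receptor that marks HSC, read 12.10 and 11.90 in HSC, 7.85, 8.08, 8.25 and 8.34 in SGM, 9.72 to 10.32 with a median of 10.07 in MEF, and 6.24 and 6.38 in NSC (3.84 ± 0.17). Procr thus stood closest in MEF (1.98 ± 0.18) and farthest in NSC (5.69 ± 0.22). Tek, the angiopoietin receptor, differed by 1.27 ± 0.14 and Tie1 by 1.82 ± 0.10, with 4.96 at another probe set of Tie1. Thy1, Cd81 and Cd63 were lower in HSC (-2.70, -2.43 and -2.43), and their HSC arrays lay below all 12 others.

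The transporters behind dye efflux moved differently from each other. Abcg2, the main transporter of the side population in marrow, read 9.57 and 9.49 in HSC, 10.03, 10.06, 10.13 and 10.40 in SGM, 10.16 to 10.82 with a median of 10.50 in MEF, and 8.52 and 8.59 in NSC. It was not called over the mean (-0.20 ± 0.12, adjusted p = 0.17), being lower than SGM (-0.63 ± 0.14) and MEF (-0.94 ± 0.13) and higher than NSC (0.97 ± 0.16). Abcb1b, a P-glycoprotein gene, read 5.43 and 5.16 against 2.72 to 2.93, 3.26 to 3.41, and 3.498 and 3.80, a difference of 2.04 ± 0.11, and Abcb1a differed by 0.50 ± 0.11.

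Cd34 was higher in HSC although the sort took CD34- cells. It read 8.11 and 8.27 in HSC, 6.99, 7.03, 7.11 and 7.17 in SGM, 6.97 to 7.18 with a median of 7.03 in MEF, and 5.86 and 5.98 in NSC, a difference of 1.50 ± 0.10 (adjusted p = 6.5e-13), and its other probe set gave 1.17 (adjusted p = 5.6e-10). The HSC arrays lay above all 12 others. The array reads RNA and the gate reads surface protein, and no value here connects them.

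Pan-leukocyte genes rose together in HSC: 27 of 30 were higher (90%, against 36.7% of all genes) and 2 lower (6.67%, against 27.5%). The median was 1.69. For 23 members HSC were above each of the 3 groups, which held for 14.7% of all genes. Lcp1, an actin-bundling protein, differed by 4.38 ± 0.27 (-0.26 at its other probe set), Laptm5, a lysosomal membrane protein, by 4.00 ± 0.16 (4.05 at its other), and Ptprcap, which binds CD45, by 3.43 ± 0.10. Ptprc, which encodes CD45 itself, read only 5.80 and 5.55 in HSC against 5.20 to 5.30, 5.06 to 5.40, and 4.94 and 5.26 at its brightest probe set (0.48 ± 0.10). A second probe set of Ptprc averaged 6.76 ± 0.66 (SD, n = 2) in HSC against group means of 3.60 to 3.77, a difference of 3.08 ± 0.13. The choice of probe set thus set the size for Ptprc but not its direction. Vav1, a signalling protein of blood cells, is counted as lower (-0.45 ± 0.12, or -0.07, not called, without the first HSC array and -0.84 without the second), but its other 2 probe sets were higher, by 2.42 and 1.21. Evl, an actin regulator, was the other member counted as lower (-1.97 ± 0.21), and its second probe set was not called (-0.25, adjusted p = 0.081).

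Most cytokine receptor and JAK-STAT genes rose in HSC. Of 36 measured, 27 rose (75%, against 36.7% of all genes) and 5 fell (13.9%, against 27.5%), with a median of 0.65. Among the signalling proteins, Stat4 differed by 3.26 ± 0.16, Stat6 by 2.80 ± 0.15, and the kinase gene Jak3 by 2.18 ± 0.11, while Stat5b, a signal carrier of many cytokine receptors, fell (-0.53 ± 0.11). Of the feedback inhibitors, Socs3 differed by 2.56 ± 0.21 and Socs2 by 3.11 ± 0.24, the latter with HSC arrays of 10.77 and 8.97. Ifngr1, the binding chain of the interferon gamma receptor, read 9.56 and 9.996 in HSC against 5.82 to 6.01, 6.40 to 6.71, and 6.55 and 6.61, a difference of 3.43 ± 0.11, while the second chain, Ifngr2, was lower (-0.76 ± 0.19). Of the receptor genes of the interleukin 6 family, Osmr was lower by the mean (-3.61 ± 0.13) through MEF (-8.42 ± 0.14), and Il6st, their shared chain, was lower at -1.23 ± 0.15 (-0.23 at its other probe set, not called). Lifr gave -3.12 ± 0.29 at its brightest probe set but at its other 4 probe sets -0.28 (called lower), 0.29 (called higher), and -0.25 and -0.16 (not called).

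Most antigen presentation genes were higher in HSC over the mean. Of 35 genes of MHC class I and interferon response, 26 rose (74.3%, against 36.7% of all genes) and 3 fell (8.57%, against 27.5%). The median was 0.99. For 21 members HSC were above each group, which held for 14.7% of all genes. Against MEF 22 rose (62.9%, where 42.4% of all genes did) and 10 fell (28.6%, near the 29.1% of all genes). The summed signal of the list, on a log2 scale, was 15.78 to 15.80 in HSC and 16.48 to 17.04 in MEF. Psmb9, an inducible subunit of the immunoproteasome, read 11.002 and 11.19 in HSC, 6.71, 6.81, 6.94 and 6.98 in SGM, 7.11 to 7.44 with a median of 7.16 in MEF, and 6.69 and 6.81 in NSC, a difference of 4.15 ± 0.13 (adjusted p = 1.1e-20). Psmb8, another such subunit, differed by 4.07 ± 0.16, and the peptide transporter genes Tap1 and Tap2 by 3.28 ± 0.11 and 3.19 ± 0.12, with 0.14, not called, at the other probe set of Tap1. Irf8, an interferon regulatory factor of myeloid and B cells, differed by 3.23 ± 0.12.

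Psmb9 and Tap1 lie head to head, and their RefSeq promoter windows share 275 bases on opposite strands, which is why the Psmb9 window (chr17:34187281-34187580 on the minus strand, GRCm38.p6) is shown.
Psmb9: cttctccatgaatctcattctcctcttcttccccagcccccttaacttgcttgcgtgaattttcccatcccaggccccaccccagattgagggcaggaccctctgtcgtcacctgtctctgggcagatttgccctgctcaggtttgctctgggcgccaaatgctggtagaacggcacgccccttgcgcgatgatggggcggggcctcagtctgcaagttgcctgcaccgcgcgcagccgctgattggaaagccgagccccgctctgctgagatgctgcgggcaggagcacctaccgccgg
It holds none of the ETS letters searched above. B2m, the light chain of every class I molecule, did not follow most of the others. Over the mean it was -0.90 ± 0.33 and lost its call without either HSC array. It was lower in HSC than in SGM (-1.24 ± 0.37) and MEF (-3.71 ± 0.35, with MEF arrays above 16) and higher than in NSC (2.27 ± 0.42). Of 10 MHC class II genes 9 rose (90%, against 36.7% of all genes) and the tenth was not called (median 0.86). Among those that rose were H2-Aa, read at 10.68 and 10.74 in HSC (3.14 ± 0.12), and the invariant chain Cd74 (1.64 ± 0.10).

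Markers of mature lineages were examined because a sorted population can hold or express them. Of 31 myeloid markers 23 rose (74.2%, against 36.7% of all genes) and the other 8 were not called (median 0.63). Their summed signal, on a log2 scale, was 13.66 to 14.34 on the HSC arrays and 11.52 to 12.08 on the other 12. S100a8 read 10.65 and 12.03 in HSC, 6.15, 6.90, 7.06 and 7.92 in SGM, 5.87 to 6.28 with a median of 6.04 in MEF, and 5.72 and 5.79 in NSC. S100a9 read 10.99 and 11.80 in HSC and 6.23, 6.36, 6.68 and 7.46 in SGM. The HSC arrays lay above all others in both genes, and both genes varied by more than 1 among the SGM arrays.

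The granule genes Ngp (3.23 ± 0.10), Prtn3 (3.05 ± 0.10) and Camp (2.88 ± 0.23, or 1.90 without the second HSC array) and the lysozyme gene Lyz2 (3.55 ± 0.17) also rose, Lyz2 by less at its other probe set (0.75). Of the defining myeloid markers, Mpo differed by 1.54 ± 0.14, Elane by 0.63 ± 0.09, Ly6g by 0.58 ± 0.10 and Csf1r by 0.36 ± 0.12 (not called without the second HSC array, 0.28), and Itgam was not called (0.09 ± 0.10, adjusted p = 0.43). The Lin- gate is meant to remove cells with mature lineage markers on their surface, and the part of any such cells in these values was not tested.

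Lymphoid markers differed little. Of 20 B cell markers 11 rose (55%, against 36.7% of all genes) and 1 fell (5%, against 27.5%), with a median of 0.24. Cd72 (1.56 ± 0.11) and Cd79b (1.27 ± 0.11) rose most, and Cd79a (-0.01 ± 0.10) and Pax5 (-0.18 ± 0.09) were not called. Dntt, the terminal transferase of early lymphoid cells, differed by 0.79 ± 0.10 at its brightest probe set, 0.70 at the second and -0.24, not called, at the third. Of 21 T and NK cell markers 10 rose (47.6%, against 36.7% of all genes) and the other 11 were not called (median 0.25). The chemokine Ccl5 rose most (1.03 ± 0.11). Cd3d was also called higher (0.39 ± 0.13, with 0.51 at its other probe set), though not against NSC (0.05 ± 0.17). Cd3e, Cd3g, Cd4 and Cd8a were not called. Without either HSC array in turn 6 rose, and with each array centred on its median 5 rose and 3 fell. Their summed signal was 11.40 to 11.49 in HSC and 11.06 to 11.45 elsewhere, so the ranges overlapped.

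Erythroid markers depended on the group compared. Of 23 measured, 5 rose against SGM (21.7%, where 35.4% of all genes did) and 11 fell (47.8%, where 28.6% did). Against MEF 17 rose (73.9%, where 42.4% of all genes did) and 2 fell (8.7%, where 29.1% did). Against NSC 12 rose (52.2%, where 28.9% of all genes did) and 11 were not called. Hba-x, an embryonic globin, read 6.81 and 6.72 in HSC and 12.45, 12.57, 12.80 and 13.31 in SGM, but 6.20 to 6.54 in MEF and 6.54 and 6.62 in NSC. The summed erythroid signal was 14.64 to 15.16 in SGM and 13.01 to 13.09 in HSC. The Hba-x signal of SGM was thus far above that of the other groups, and its part in the falls against SGM was not tested. The adult globin gene Hbb-b2 was lower than in SGM (-2.32 ± 0.29) and higher than in MEF (3.81 ± 0.27) and NSC (2.71 ± 0.33). Near-identical globin genes share probes, so single globins are uncertain.

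Megakaryocyte genes rose in 7 of 14 cases (50%, against 36.7% of all genes) and fell in 1 (7.14%, against 27.5%). Apart from Nfe2, the largest was Gp9, a chain of the von Willebrand factor receptor (0.87 ± 0.09), and Pf4 was not called (0.23 ± 0.10). Vwf, von Willebrand factor, which marks platelet-biased HSC as well as endothelium, differed by only 0.35 ± 0.10 at its brightest probe set, but its other probe set averaged 10.44 ± 0.21 (SD, n = 2) in HSC and 5.34 to 6.38 in the other groups (4.46 ± 0.15). Of 16 endothelial markers 6 rose (37.5%, near the 36.7% of all genes) and 2 fell, and against SGM 5 rose and 4 fell. The risers were Eng, Tie1, Emcn, Icam2, Tek and Vwf. Cdh5 (-0.16 ± 0.14), Pecam1 (0.22 ± 0.10) and Flt1 (-0.00 ± 0.10) were not called, and Kdr was lower (-0.40 ± 0.10). The part of any endothelial cells in these values was not tested. Emcn gave 1.76 ± 0.14 at its brightest probe set, where it was not called against SGM (0.29 ± 0.15). Its other 2 probe sets gave 0.43 and 0.07, the latter not called. Among 12 mast cell and basophil markers 5 rose (41.7%, near the 36.7% of all genes) and 2 fell (16.7%, against 27.5%). The largest rises were those of Hdc (1.75 ± 0.15), the histamine-forming enzyme, and Cpa3 (1.08 ± 0.13).

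**Figure D3:**
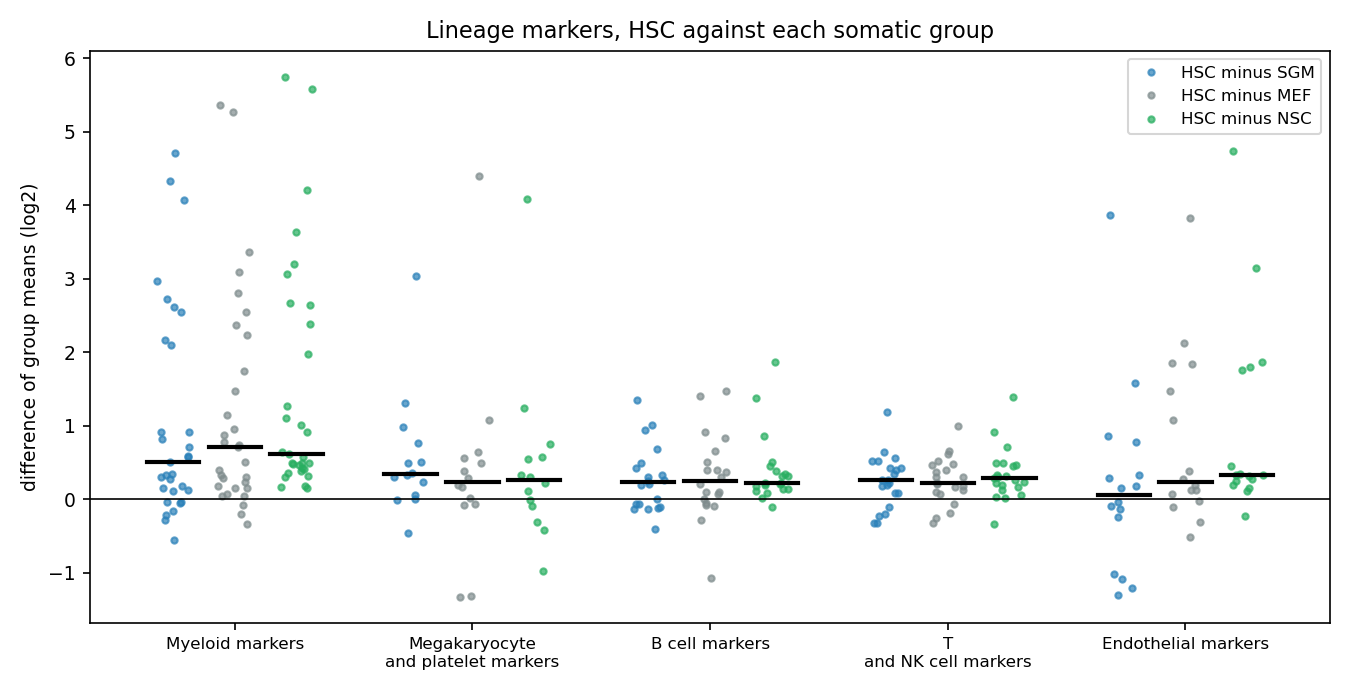
Difference of group means (log2, y axis) of HSC from SGM (blue), MEF (grey) and NSC (green) for the members of 5 lineage marker lists, 1 point per gene, with the median as a black line. The highest myeloid points, near 5, are S100a8 and S100a9, while most B cell and T and NK cell points lie within 1 of 0.

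By the medians of cell cycle genes, HSC lay below NSC and SGM and above MEF. Against NSC 39 of 51 were lower (76.5%, where 24.4% of all genes were) and 1 higher (1.96%, where 28.9% were), with a median of -1.50. Compared with SGM, 32 were lower (62.7%, where 28.6% of all genes were) and 4 higher (7.84%, where 35.4% were), with a median of -0.70. Against MEF 34 were higher (66.7%, where 42.4% of all genes were) and 7 lower (13.7%, where 29.1% were), with a median of 0.71. In 38 of the 51 the HSC mean lay between a higher NSC mean and a lower MEF mean. Both calls, lower than NSC and higher than MEF, were made in 27. The shares of all genes that lay so were not counted, so these 2 counts have no background to be read against. Over the mean of the 3 groups 29 fell (56.9%, where 27.5% of all genes did) and 8 rose (15.7%, where 36.7% did), with a median of -0.52. The number that fell depended on the processing, from 16 to 37.

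Rrm2, the ribonucleotide reductase subunit made in S phase, was low against all 3 groups. It read 6.15 and 6.88 in HSC, 10.18, 10.44, 10.78 and 11.49 in SGM, 9.92 to 10.46 with a median of 10.19 in MEF, and 10.55 and 10.83 in NSC, a difference of -4.02 ± 0.27 (adjusted p = 2.9e-13). The kinesin Kif2c (-2.07 ± 0.13) was also lower than each group. The mitotic kinase Bub1 (-2.11 ± 0.33) was lower than SGM (-2.76 ± 0.37) and NSC (-2.76 ± 0.42), but did not pass the test against each group (adjusted p = 0.13), with -0.80 ± 0.34 against MEF. Cdk1 read 7.85 and 8.58 in HSC, 9.94, 10.08, 10.22 and 10.25 in SGM, 8.21 to 8.85 with a median of 8.42 in MEF, and 10.33 and 10.63 in NSC, so HSC lay below SGM and NSC and was not called against MEF (-0.28 ± 0.18). Pold1, a DNA polymerase subunit, was higher than SGM (1.91 ± 0.19) and MEF (3.35 ± 0.18) and lower than NSC (-0.68 ± 0.22).

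Of 9 G1 cyclins and their kinases 5 fell (55.6%, against 27.5% of all genes) and 1 rose (11.1%, against 36.7%). Ccnd1, cyclin D1, read 8.88 and 9.08 in HSC against 10.87 to 11.34, 12.98 to 13.32, and 12.20 and 12.45, a difference of -3.18 ± 0.17, with -0.79 at its other probe set. Cdk4 fell (-1.89 ± 0.18), with a like value of -1.85 at its second probe set. Ccnd2 was higher than in SGM (0.86 ± 0.28) and lower than in MEF (-1.64 ± 0.26) and NSC (-1.32 ± 0.32), and Ccnd3 was the member that rose (0.39 ± 0.13), by 0.66 without the first HSC array and 0.13, not called, without the second.

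Cell cycle inhibitors and genes linked with quiescence were more often lower than higher in HSC over the mean, but not against NSC. Of 35 measured 20 fell and 8 rose (57.1% and 22.9%, against 27.5% and 36.7% of all genes), with a median of -0.54. Against SGM 16 fell (45.7%, where 28.6% of all genes did) and 8 rose (22.9%, where 35.4% did), with a median of -0.32. Against MEF 19 fell (54.3%, where 29.1% did) and 8 rose (22.9%, where 42.4% did), with a median of -1.18. Against NSC 11 fell (31.4%, where 24.4% did) and 10 rose (28.6%, where 28.9% did), with a median of 0.096. Cdkn1c, the inhibitor p57 known for its part in HSC quiescence, read 9.36 and 8.28 in HSC, 11.22, 11.22, 11.33 and 11.44 in SGM, 6.96 to 8.05 with a median of 7.49 in MEF, and 6.44 and 7.09 in NSC. It was lower than in SGM (-2.48 ± 0.29), higher than in MEF (1.30 ± 0.27) and NSC (2.05 ± 0.33), and not called over the mean (0.29 ± 0.26, adjusted p = 0.33), though it was without the second HSC array (0.83, adjusted p = 0.03). Among the largest falls were those of the p53 target Ccng1 (-4.45 ± 0.22), the growth arrest gene Gas1 (-3.98 ± 0.17) and Cdkn2b (-2.99 ± 0.19), each lower than in all 3 groups. The fall of Gas2 ranked between those of Gas1 and Cdkn2b. Gadd45b (2.70 ± 0.27), a stress response gene, and Txnip (1.37 ± 0.13), the thioredoxin inhibitor, were the largest rises.

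Immediate early and stress genes, which dissociation and sorting are known to induce, rose in 18 of 30 cases and fell in 6 (median 0.70). Their shares were 60% and 20%, against 36.7% and 27.5% of all genes. Atf3 read 10.49 and 12.38 in HSC against 9.04 to 10.37, 7.92 to 8.20, and 7.08 and 7.33, a difference of 3.10 ± 0.30. Dusp2 (2.53 ± 0.11), Zfp36 (2.43 ± 0.12) and Rgs2 (2.33 ± 0.20) rose as well. Others fell, with Ccn1, a matrix protein gene, at -4.91 ± 0.17 and Egr1 at -0.80 ± 0.19, the latter not called at its other probe set (-0.02) or without the first HSC array (-0.51). HSC and SGM were sorted and MEF and NSC were grown in culture, and the part of handling in these values was not tested.

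Energy genes gave no single direction. Of 22 glycolysis genes 8 rose (36.4%, against 36.7% of all genes) and 11 fell (50%, against 27.5%), with a median over the mean of -0.20. Against NSC 7 rose (31.8%, where 28.9% of all genes did) and 7 fell (31.8%, where 24.4% did). Pfkfb3, which makes an activator of glycolysis, rose (1.69 ± 0.10), as did hexokinase Hk1 (1.19 ± 0.17), and both were above each group. Pdk1, which holds pyruvate from the mitochondria, rose (1.01 ± 0.16, or 0.67 without the second HSC array) through NSC (2.38 ± 0.21). Triose phosphate isomerase Tpi1 (-1.16 ± 0.16) and the glucose transporter Slc2a1 (-1.08 ± 0.14) fell. Of 51 oxidative phosphorylation genes 10 rose (19.6%, against 36.7% of all genes) and 21 fell (41.2%, against 27.5%), with a median of -0.25. After quantile normalization 17 rose and 15 fell. Against NSC alone 3 rose (5.88%, where 28.9% of all genes did) and 28 fell (54.9%, where 24.4% did), with a median of -0.59. The complex I gene Ndufs3 (-1.31 ± 0.13) and the complex II gene Sdhd (-1.28 ± 0.20) were lower than each group.

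Of 33 hypoxia and redox genes 11 rose (33.3%, against 36.7% of all genes) and 14 fell (42.4%, against 27.5%). Hif1a, the hypoxia factor linked with HSC metabolism, read 10.57 and 10.11 in HSC, 12.10, 12.28, 12.28 and 12.54 in SGM, 12.94 to 13.66 with a median of 13.08 in MEF, and 11.85 and 12.21 in NSC, a difference of -2.16 ± 0.16, and its second probe set gave -2.12. The glutathione reductase gene Gsr fell (-2.48 ± 0.21), while Gclm, a subunit of the enzyme that starts glutathione synthesis, rose (2.43 ± 0.19). Vegfa, a target of Hif1a, rose (1.01 ± 0.16, or 0.64 without the first HSC array). Targets of Hif1a were not examined as a set, and the activity of its protein was not measured. Of 27 cytosolic ribosomal protein genes 21 rose (77.8%, against 36.7% of all genes) and the other 6 were not called (median 0.43). Rps10 (1.64 ± 0.16) and Rpsa (1.65 ± 0.14) were the largest, though ribosomal probe sets can also read processed pseudogenes.

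The receptor genes Kit and Cxcr4 were higher in HSC and their ligand genes Kitl and Cxcl12 lower, by the mean. Among 34 integrin and adhesion genes 13 rose and 11 fell, or 11 and 12 with each array centred on its median. These shares, 38.2% and 32.4%, lie near the 36.7% and 27.5% of all genes. Kitl, the ligand of Kit, read 5.64 and 5.03 in HSC against 9.21 to 10.12, 8.16 to 9.01, and 8.61 and 8.65, a difference of -3.58 ± 0.19, where Kit rose by 4.40. Cxcr4 read 6.88 and 6.86 in HSC against 3.21 to 3.52, 3.13 to 3.45, and 5.31 and 5.39, a difference of 2.86 ± 0.15, while its ligand Cxcl12 fell (-1.84 ± 0.17), though it was higher than in NSC (0.58 ± 0.22). Selplg, the selectin ligand of leukocytes (3.02 ± 0.09), and the integrin chains Itgb2 (2.04 ± 0.09) and Itgb7 (1.60 ± 0.10) rose, as did the integrin ligand gene Icam1 (1.83 ± 0.15). Vcam1 (-3.43 ± 0.20), the stromal partner of HSC integrins, and N-cadherin, Cdh2 (-4.02 ± 0.43), fell.

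Of 16 Notch pathway genes 8 rose (50%, against 36.7% of all genes) and 6 fell (37.5%, against 27.5%). With each array centred on its median 5 rose and 6 fell. The ligand gene Jag2 (2.62 ± 0.14), the glycosyltransferase gene Mfng (2.14 ± 0.08) and Psen2, a subunit of the cleaving protease (1.79 ± 0.15), were higher than each group. The receptor Notch1 was higher than in SGM (1.14 ± 0.14) and MEF (1.06 ± 0.13) and lower than in NSC (-1.12 ± 0.16), and the nuclear effector Rbpj was lower than each (-0.93 ± 0.11). Among 39 TGF-beta and BMP genes 13 rose and 18 fell, with the inhibitor Skil (2.34 ± 0.11) above each group and the mediator Smad1 (-2.75 ± 0.23) and the target Id2 (-2.27 ± 0.41) below each. Among 37 Wnt genes 8 rose and 12 fell, from Wnt11 (1.38 ± 0.16), a ligand, to Fzd2 (-2.05 ± 0.15), a receptor. Beside the 36.7% and 27.5% of all genes, both lists held a smaller share of higher and a larger share of lower members.

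Of 35 Hox and Pbx genes 10 rose (28.6%, against 36.7% of all genes) and 7 fell (20%, against 27.5%). The order turned after quantile normalization (8 and 9) and after median centring of the arrays (6 and 8), and 6 rose and 4 fell without the first HSC array, where Hoxa5 was 0.50 and Hoxa7 was no longer called (0.24). The A cluster genes Hoxa5 (0.94 ± 0.18), Hoxa7 (0.38 ± 0.15) and Hoxa9 (0.60 ± 0.14) rose by the mean, while Hoxa11 of the same cluster fell (-0.57 ± 0.13), with Hoxa5 and Hoxa7 called against NSC (2.52 ± 0.23 and 1.44 ± 0.20) and not against SGM or MEF. Hoxb4, a gene known for expanding HSC, rose by 0.55 ± 0.08 and was above each group. Of the C cluster, Hoxc9 was lower at -1.57 ± 0.18 and Hoxc8 at -0.86 ± 0.10, both lower than SGM and MEF and not called against NSC. Of 18 Polycomb and trithorax genes 8 rose (44.4%, against 36.7% of all genes) and 3 fell (16.7%, against 27.5%). The methyltransferase genes of Polycomb complex 2 moved apart. Ezh1 read 9.15 and 8.92 in HSC, 6.71, 6.77, 6.92 and 7.11 in SGM, 6.29 to 6.57 with a median of 6.48 in MEF, and 6.22 and 6.27 in NSC (2.51 ± 0.12). Ezh2 read 7.78 and 8.78 in HSC, 9.67, 9.75, 10.02 and 10.37 in SGM, 7.59 to 8.17 with a median of 8.02 in MEF, and 10.74 and 10.87 in NSC (-1.30 ± 0.22), was lower than SGM and NSC and was not called against MEF (0.29 ± 0.23). Without the first HSC array the Ezh2 difference over the mean was -0.80. Ezh2 thus lay below SGM and NSC, as most cell cycle genes did, while Ezh1 lay above all 3 groups.

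Genes of the other groups' own tissues were more often lower than higher in HSC over the mean. The lists were chosen with earlier results known and are no independent check of the labels. Of 55 mesenchyme and matrix genes 46 fell (83.6%, against 27.5% of all genes) and the other 9 were not called (median -1.72). The fall was against SGM (-1.97) and MEF (-3.30). Against NSC 13 rose (23.6%, where 28.9% of all genes did) and 17 fell (30.9%, where 24.4% did), with a median of 0.03. Col1a2 read 7.70 and 7.42 in HSC, 14.02, 14.03, 14.10 and 14.35 in SGM, 15.96 to 16.17 with a median of 16.12 in MEF, and 6.66 and 6.88 in NSC, so that HSC and NSC were near each other and apart from SGM and MEF, but its other probe set was not called over the mean (0.13). Of 33 neural genes 20 fell (60.6%, against 27.5% of all genes) and 3 rose (9.09%, against 36.7%), with a median of -0.80. Fabp7, a fatty acid binding protein of neural progenitors, read 6.53 and 5.96 in HSC and 13.77 and 13.84 in NSC (-7.56 ± 0.20), and Sox2, the neural and pluripotency factor, differed by -7.38 ± 0.18 from NSC and was not called against SGM (-0.03 ± 0.16) or MEF (0.23 ± 0.15). Of 31 gonad and mesonephros genes 15 fell (48.4%, against 27.5% of all genes) and 7 rose (22.6%, against 36.7%). The imprinted genes Peg3 (-4.91 ± 0.22), Mest (-4.53 ± 0.20) and Igf2 (-3.71 ± 0.17) fell most, though the other probe set of Igf2 was not called (-0.17). Against MEF alone 13 gonad and mesonephros genes rose (41.9%) and 9 fell (29%), near the 42.4% and 29.1% of all genes. Igf2 read as high in MEF (median 15.80) as in SGM (15.80). The kidney and gonad factor Wt1 was lower than SGM (-2.85 ± 0.17). HSC are labelled as male and the other groups as of mixed sex, and the Y-linked Eif2s3y was higher in HSC (8.05 and 7.98, a difference of 2.74 ± 0.55) and Xist lower (-1.20 ± 0.31), though Xist was not called against SGM (-0.21 ± 0.35). Eif2s3y read 3.38 and 3.20 in SGM replicates 1 and 4, below the 3.60 to 3.97 of female E13.5 germ cells, and 6.95 and 6.54 in SGM replicates 2 and 3, while NSC read 4.26 and 4.16 and MEF 6.16 to 7.02. Arrays labelled as mixed thus differed from each other in this gene.

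**Figure D4:**
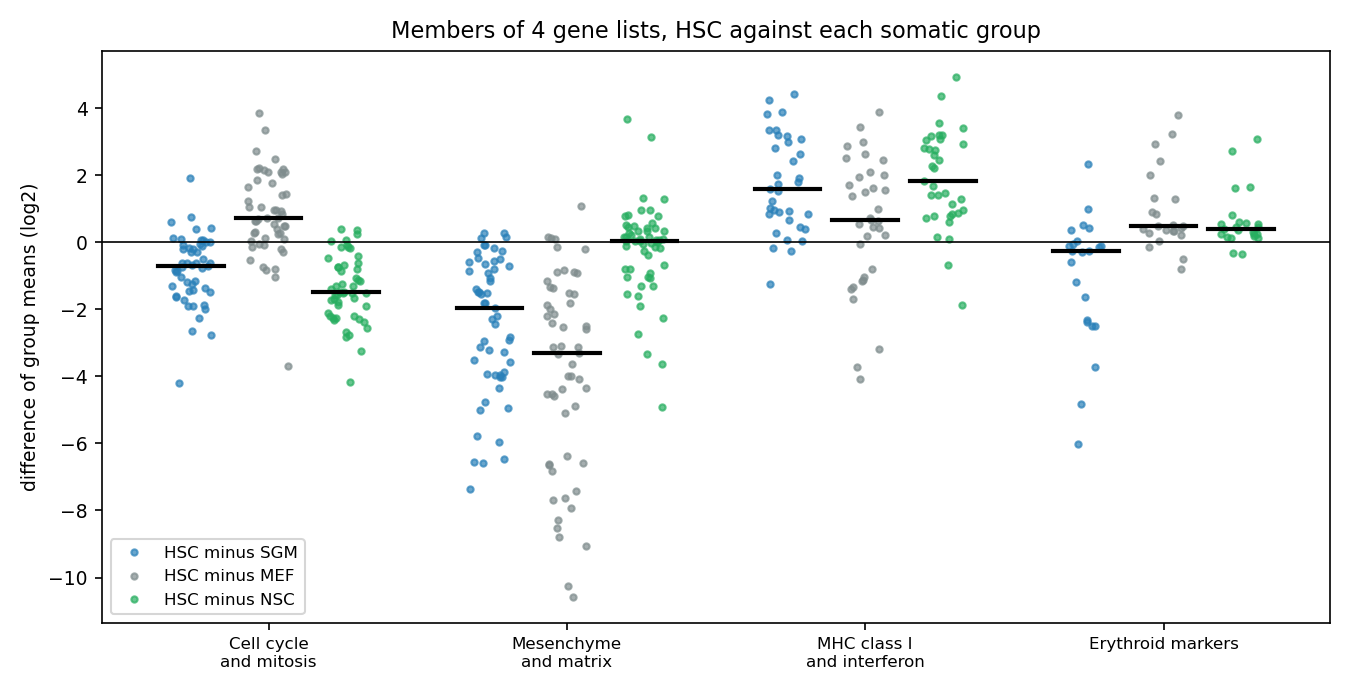
Difference of group means (log2, y axis) of HSC from SGM (blue), MEF (grey) and NSC (green) for the members of 4 gene lists, 1 point per gene, with the median as a black line. The cell cycle medians are -0.70, 0.71 and -1.50, and the mesenchyme medians lie far below 0 against SGM and MEF but at 0.03 against NSC.

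**Figure D5:**
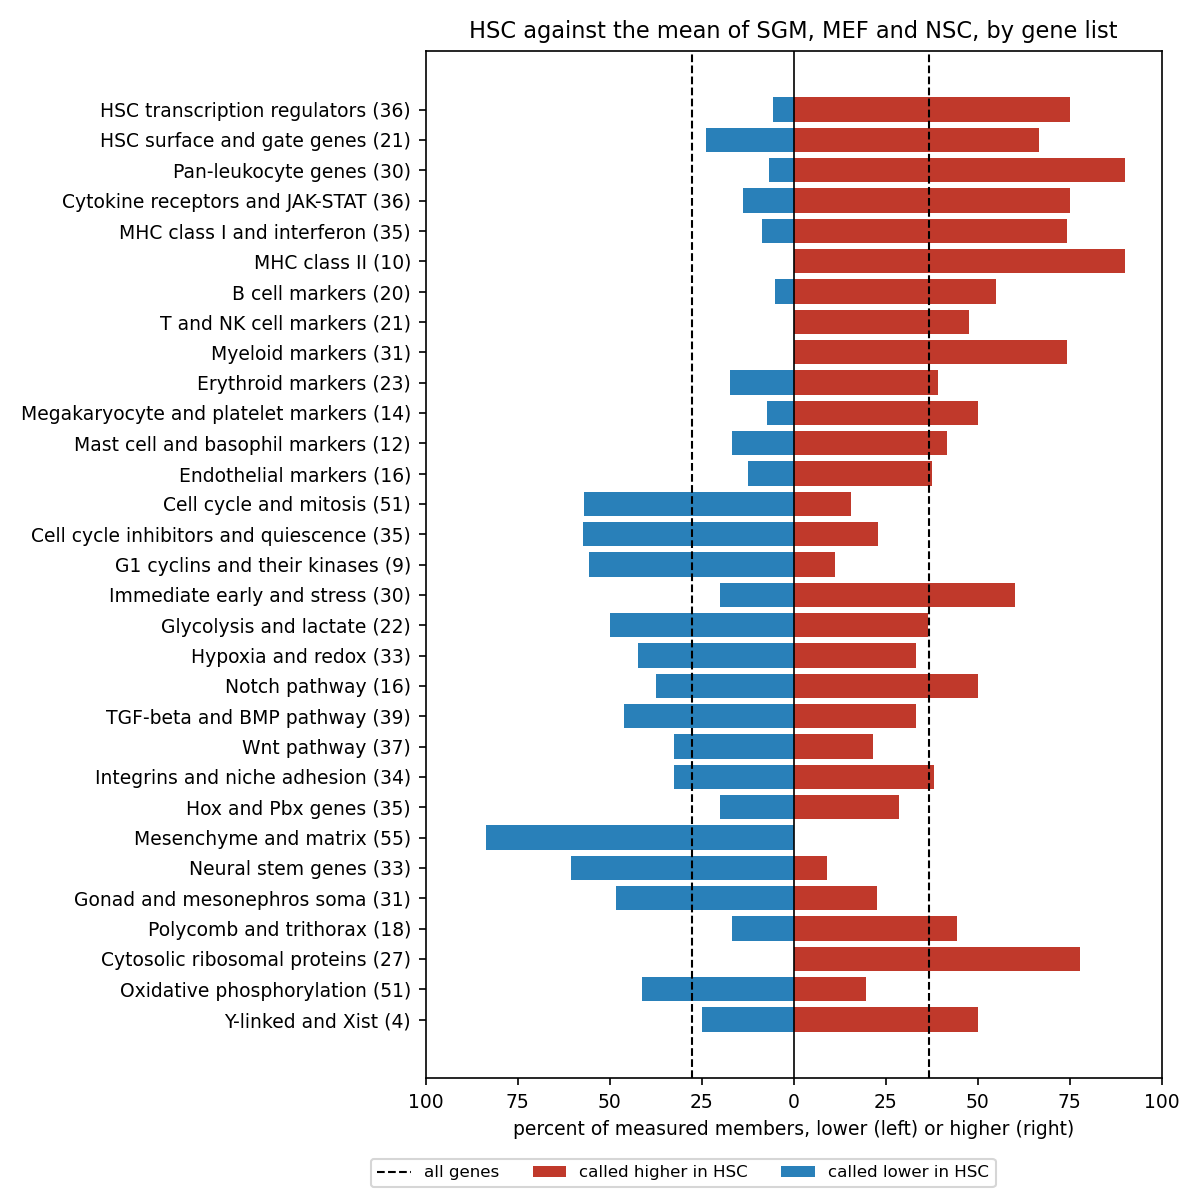
Percent of the measured members of each of 31 gene lists (y axis, number of members in brackets) called lower (blue, left of 0) or higher (red, right of 0) in HSC against the mean of SGM, MEF and NSC. Dashed lines mark 36.7% higher and 27.5% lower over all genes, and pan-leukocyte genes (27 of 30) reach farthest right and mesenchyme genes (46 of 55) farthest left among lists of at least 20 genes.

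The 2 HSC arrays differed from each other by more than 2-fold in 135 genes, 67 higher in the second and 68 higher in the first. Hspa1a, a heat shock gene, read 11.86 and 8.66, and Hspa1b 9.51 and 7.22, and these were chosen after their values were seen. Over the mean of the other groups Hspa1a was 0.28, not called, without the first array and 3.47 without the second. Myb, Socs2 and Peg3 were higher in the first array, and S100a8, Camp (9.87 and 11.81) and Atf3 in the second. The cell cycle list was higher in the second array in 40 of 51 genes (median 0.23), immediate early genes in 22 of 30 (0.35), glycolysis in 17 of 22 (0.28) and oxidative phosphorylation in 37 of 51 (0.17). With 2 arrays these are values of single samples, with no test. Differences of the size named above for Myb and S100a8 therefore rest on HSC arrays that differ by more than 1 on the log2 scale, though both lie above every other somatic array.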

How the data were processed

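Per the labels' protocols, column-purified and DNase-treated total RNA went through 2 successive in vitro transcriptions and biotin labelling before hybridisation to Affymetrix mouse arrays. The deposited values are log2 signals per probe set, and RMA is the tool named in the submitters' processing notes, with no version. Later steps of the authors are not given in the sources used here. The file holds 34 columns, of which 2 (the third embryonic stem cell and the fifth E11.5 germ cell column) equal the means of other columns within 1e-06 and were left out. Single-symbol probe sets were named from the platform annotation, and 10817 of the 10833 symbols were updated through RefSeq and 16 kept. A further 396 probe sets with several symbols, 1193 with none and 66 controls were left out. Of 2073 genes with more than 1 probe set, 217 had probe sets called in opposite directions.

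The log2 values were fitted with limma 3.58.1 (R 4.3.3), 32 arrays in 10 groups sharing 1 estimate of the spread (22 residual degrees of freedom, median residual SD 0.161), without covariates. Titles call the samples biological replicates, but do not name animals or cultures. The number of arrays, 2 for HSC, limits the precision. The fit was tested on simulated data. Named genes are those of fixed rules: the 12 largest rises and falls without overlap of somatic arrays, the 5 widest gaps from each group, the 4 largest per single comparison, up to 6 called members of each list in either direction, and fixed gate genes, regulators and defining cell type markers. All comparisons, lists and members were chosen with earlier results of these data known. Alternatives covered the arrays fitted, the replicate number as a block, probe set choice, low signal, scaling, spread, group weights and single arrays. Deviations of like-numbered HSC and other somatic arrays correlated at -0.195 to 0.29 and not above 0.1 in every pair, so the numbers were not taken to pair samples.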

Additional observations from a re-analysis of the deposited data

Results flagged for a closer look

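Each named gene was examined for a single array that stood apart within SGM (4 arrays) or MEF (6 arrays), where the gap from one end array to the next, as a share of the range, passed Dixon's 95% critical value. Of 356 pairs of a gene and a group 21 passed, where chance flags about 1 in 20, or 17.8. HSC and NSC have 2 arrays each and could not be examined in this way. Log2 values with the highest MEF array apart were Acta2 at 16.74 in replicate 2 (next 16.58), Cd81 at 13.89 in replicate 6 (next 13.56), Hif1a at 13.66 in replicate 1 (next 13.19), Hoxb4 at 6.08 in replicate 3 (next 5.86), Jak3 at 7.36 in replicate 5 (next 7.15), Kitl at 9.01 in replicate 1 (next 8.27), Lifr at 8.79 in replicate 1 (next 8.30), Pax5 at 8.27 in replicate 3 (next 8.06) and Vcam1 at 11.47 in replicate 1 (next 11.05). Log2 values with the lowest MEF array apart were Col5a2 at 16.43 in replicate 6 (next 16.72) and Ezh2 at 7.59 in replicate 6 (next 7.97). Log2 values with the highest SGM array apart were Camp at 8.59 in replicate 4 (next 8.13), Ccnd2 at 8.06 in replicate 3 (next 7.55), Fzd2 at 10.62 in replicate 1 (next 10.28), H2-Aa at 7.72 in replicate 1 (next 7.54), Hoxa11 at 7.29 in replicate 2 (next 6.63), Hoxa9 at 7.24 in replicate 2 (next 6.54) and Mecom at 6.59 in replicate 3 (next 6.40). Log2 values with the lowest SGM array apart were Emcn at 8.56 in replicate 4 (next 8.88), Lyl1 at 7.28 in replicate 2 (next 7.55) and Ptpn6 at 3.51 in replicate 2 (next 3.79).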

How the results depend on the processing

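All 10 counts of genes called over the mean, over SGM, MEF and NSC and over each group stayed within 1.5 times of the values given under all 30 alternatives that apply to them. Over the mean, leaving out single arrays gave 2510 to 3049 genes higher and 1971 to 2277 lower, and the other alternatives 2063 to 3267 and 1885 to 2652. The share of calls that were higher was 57.1%, against 48.7% with arrays centred on their medians and 54% after quantile normalization. With the replicate number as a block (replicate block), 3010 genes were higher and 2260 lower over the mean, and the block moved no gene count by over 1.5 times. Same-numbered deviations correlated at -0.195 between HSC and NSC, and a block with the NSC numbers crossed, added after the data were seen, called 2349 genes higher and 2027 lower against NSC, where the block as numbered called 2328 and 2023. Of the 62 list counts 37 moved by over 1.5 times under some alternative. Of these 26 were counts of under 10, and the 11 others were higher counts of the HSC surface (14, range 9 to 14), B cell (11, 5 to 11), T and NK cell (10, 2 to 12), myeloid (23, 15 to 24), integrin (13, 8 to 16), Hox (10, 4 to 11) and oxidative phosphorylation lists (10, 5 to 17) and lower counts of the cell cycle (29, 16 to 37), TGF-beta (18, 10 to 21), neural (20, 13 to 22) and gonad lists (15, 9 to 17). Of the smaller counts, higher members ranged from 6 to 16 for erythroid markers, 1 to 17 for cell cycle genes, 5 to 9 for glycolysis, 5 to 10 for Notch, 4 to 11 for Wnt, 4 to 9 for Polycomb, 3 to 5 for mast cell, 4 to 8 for gonad and 1 to 9 for neural genes, and lower members from 1 to 7 for erythroid markers, 3 to 7 for immediate early genes, 3 to 11 for Hox genes, 1 to 5 for MHC class I genes and 2 to 5 for Polycomb genes. The other 12 had main counts of 0 to 2 and ranged from 0 to 4. Without the first HSC array the lower counts fell to 1 for HSC regulators (also without the first NSC array) and pan-leukocyte genes, and 1 ribosomal gene was lower. Without the second HSC array 1 mast cell and 1 endothelial gene were lower, no megakaryocyte gene was (nor without the second NSC array), and 2 mesenchyme genes were higher. Without either HSC array no B cell marker was lower.

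Of 178 named genes 145 kept their direction and their side of the threshold over the mean under every alternative, 18 lost the call under some and 11 turned in sign under some. With the setting 1 value per gene, mean of probe sets, the turned difference was Vav1 1.06. With the setting quantile normalization, the turned difference was B2m 0.146. With the setting without SGM in the mean, the turned differences were Hba-x 0.311, Mycn 0.567, Notch1 -0.0306 and Wt1 0.174. With the setting without MEF in the mean, the turned differences were B2m 0.514, Flt1 0.257 and Meis1 -0.107. With the setting without NSC in the mean, the turned differences were Cdkn1c -0.589, Hoxa7 -0.145 and Sox2 0.102. Settings without a group leave that group out of the mean by construction, and for the others the cause was not tested. With 2 HSC arrays, small differences near the median of all genes are the least certain.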
